A study of Mus musculus with 9 samples.

Results

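Mitochondrial beta-oxidation was followed through 10 genes picked by name: Cpt1a, Cpt2, Slc25a20, Acadm, Acadl, Acadvl, Hadha, Hadhb, Hadh and Acaa2. All 10 were measured, each by 1 probe set that names no other gene, out of 22180 genes tested on the array. Liver RNA came from mice that were 5 weeks old at the start, named C57BL/6 in the protocol and C56BL/6J under strain, and every mouse was fasted overnight before the liver was taken. RD mice ate a regular diet and HFD mice a high-fat diet, each with vehicle. Treatment is labelled as 12 weeks in every group. GFB mice ate the high-fat diet and received an oral dose of 500 mg/kg ginseng flower bud extract daily over 12 weeks. Each group had 3 arrays, and whether these came from separate mice is not labelled, so a p-value speaks of the spread among the 9 samples, which may be technical. Values are log2 expression on a whole-transcript microarray, and a difference of 1 is a doubling.

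Beta-oxidation shortens fatty acids inside mitochondria and supplies acetyl-CoA for ketone bodies, which is a main task of the fasting liver. Long-chain fatty acids enter as carnitine esters. Cpt1a makes the ester at the outer membrane, Slc25a20 carries it across the inner membrane, and Cpt2 returns it to coenzyme A. Each round of the spiral then dehydrogenates the acyl-CoA (Acadvl, Acadl and Acadm, by falling chain length), hydrates it, dehydrogenates it again and splits off acetyl-CoA. For long chains the trifunctional protein of Hadha and Hadhb carries out the last steps. For shorter chains Hadh is the hydroxyacyl-CoA dehydrogenase and Acaa2 the matrix thiolase. In liver many of these genes are known targets of the nuclear receptor PPAR-alpha and its coactivator PGC-1alpha, the product of Ppargc1a.

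Promoter sequences from RefSeq (GRCm38.p6) were matched for 9 of the 10 genes, and each window ran from 250 bases before to 50 after the gene start. Hadha and Hadhb, the genes with the smallest adjusted p in the pooled comparison below, are neighbours that start on opposite strands with 272 bases between their starts. The 250 bases before the start of Hadhb therefore hold most of the stretch that both genes share. It is shown on the plus strand at chr5:30155003-30155252, with the letters GGGCGG (a GC box) in capitals.
Hadha and Hadhb shared stretch: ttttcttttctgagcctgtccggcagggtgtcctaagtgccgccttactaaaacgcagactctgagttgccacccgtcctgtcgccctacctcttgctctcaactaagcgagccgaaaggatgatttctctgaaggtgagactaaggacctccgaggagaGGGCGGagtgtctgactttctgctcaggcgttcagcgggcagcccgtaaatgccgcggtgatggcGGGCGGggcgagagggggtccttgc

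A GC box (GGGCGG on either strand) was found in 7 of the 9 windows and in 35.7% of all 32851 promoter windows of that length. The windows of Hadha and Hadhb overlap. The only box of Hadha, 188 bases before its start, is the box 90 bases before the start of Hadhb, counted in both windows. The half-site AGGTCA, searched on either strand, which nuclear receptors can bind, was found in 3 of the 9, those of Cpt1a, Acadm and Acadvl, and in 16.3% of all windows. A direct repeat of AGGNCA with 1 base between the copies, searched on both strands, was in 0 of the 9 and in 0.381% of all windows. CCAAT on either strand was in the windows of Hadh and Cpt1a and in 37.4% of all. Cpt1a, Acadm and Acadvl had lower means in both high-fat groups than in RD. So did Hadha, Hadhb, Acadl and Cpt2, whose windows lack the half-site. The windows of Hadh and Slc25a20 lack it too. Sequence outside the windows was not searched, and a link of the half-site to the differences was not tested. The 3 windows that hold it are shown so that its place can be read. They are 60 bases each, read along the gene's own strand, with the half-site in capitals, at chr19:3323180-3323239 (plus strand) for Cpt1a, chr3:153944834-153944893 (minus) for Acadm and chr11:70015483-70015542 (minus) for Acadvl.
Cpt1a: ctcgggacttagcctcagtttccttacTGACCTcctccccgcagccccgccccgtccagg
Acadm: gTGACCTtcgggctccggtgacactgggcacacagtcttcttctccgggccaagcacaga
Acadvl: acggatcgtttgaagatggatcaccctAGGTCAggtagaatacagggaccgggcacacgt

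For Hadh and Slc25a20, the members that were not lower in HFD, the last 120 bases before the start are shown with GC boxes in capitals, at chr3:131272102-131272221 (minus) and chr9:108662016-108662135 (plus). A match of letters describes these windows and is not a measured binding site.
Hadh: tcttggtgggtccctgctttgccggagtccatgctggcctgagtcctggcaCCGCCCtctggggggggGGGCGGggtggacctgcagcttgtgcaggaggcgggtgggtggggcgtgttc
Slc25a20: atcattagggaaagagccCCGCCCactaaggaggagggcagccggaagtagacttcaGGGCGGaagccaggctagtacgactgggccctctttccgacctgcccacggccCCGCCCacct

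The high-fat diet was first set against the regular diet. Hadha fell 1.40-fold, and 7 other members were lower without passing the test, whereas Hadh and Slc25a20 were slightly higher. Of the 10 members, 1 fell and 0 rose at an adjusted p under 0.05 (limma, Benjamini-Hochberg over all genes), where 0.518% of all genes fell and 0.821% rose. At an unadjusted p under 0.05, 6 members were lower, against 6.39% of all genes. The 3 HFD arrays lay wholly below the 3 RD arrays for 8 members, against 7.86% of all genes. The median log2 difference of the 10 members was -0.33, and that of all genes was 0.00. Every member but Hadhb had a mean level above at least 97.6% of all genes. The shares over all genes, here and below, include many dimmer genes and are not matched for brightness. The members were chosen with earlier results of these data known, so setting them beside these shares is a description and not an independent test.

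**Figure D1:**
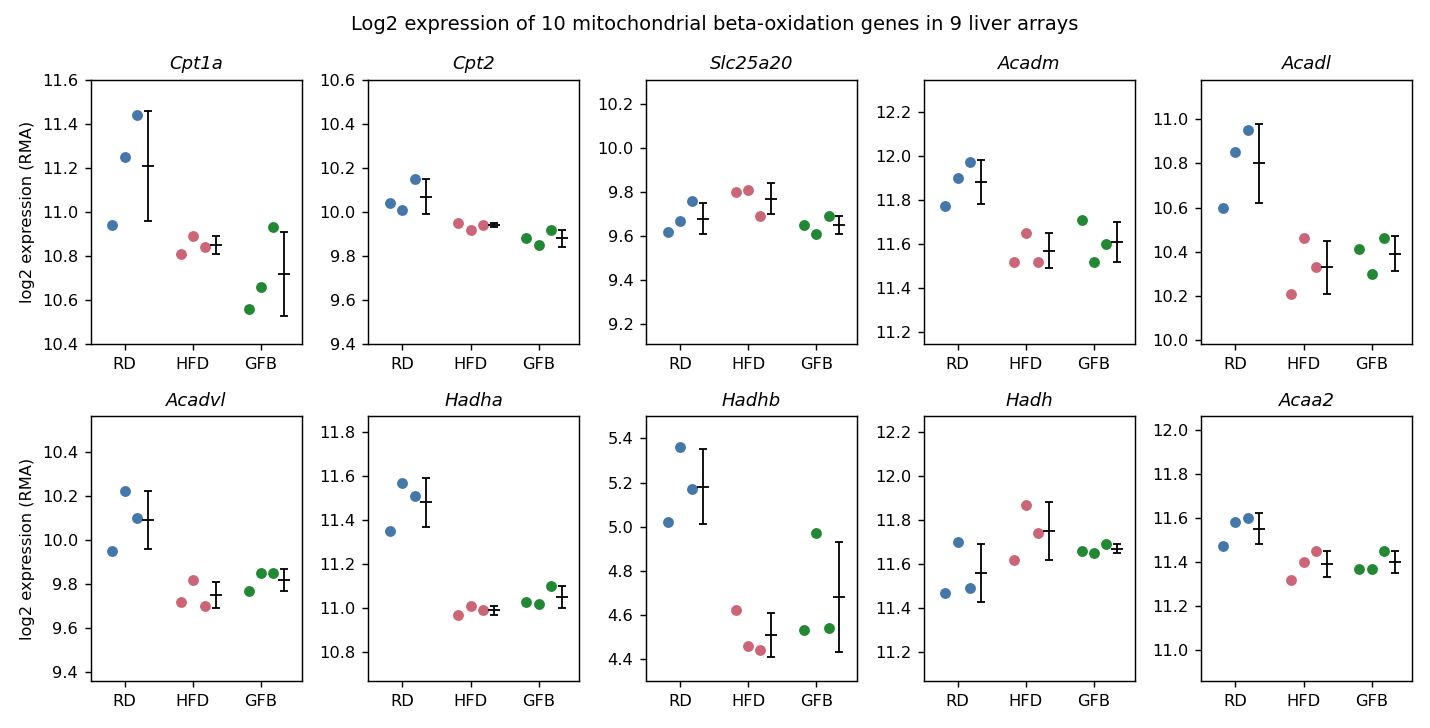
Log2 expression of each member (vertical axes, all spanning the same range) in the RD, HFD and GFB groups. Points are arrays in the order of replicates 1, 2 and 3, and the bars are the mean ± SD of 3 arrays. For Hadha the 3 RD arrays, at 11.35 to 11.57, sit above all 6 others, at 10.97 to 11.10.

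Hadha encodes the trifunctional protein's alpha chain, which holds the long-chain hydratase and hydroxyacyl dehydrogenase. Its log2 level was 11.35, 11.57 and 11.51 in RD, 10.97, 11.01 and 10.99 in HFD, and 11.03, 11.02 and 11.10 in GFB. The RD arrays were all high, and the HFD arrays differed among themselves by only an SD of 0.02. The log2 difference of HFD from RD was -0.49 ± 0.07 (SE, n = 3 arrays a group, adjusted p = 0.0190 with limma). This call was kept without RD replicate 1 and without any 1 of the GFB arrays. It was lost without RD replicate 2 (adjusted p = 0.0732), RD replicate 3 (0.0656), HFD replicate 1 (0.0644), HFD replicate 2 (0.0622) or HFD replicate 3 (0.0745), with log2 differences from -0.50 to -0.44, and in a fit of the 6 RD and HFD arrays alone (adjusted p = 0.0844).

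Hadhb encodes the beta chain, the long-chain thiolase. Its probe set was dim: log2 levels were 5.02, 5.36 and 5.17 in RD, 4.62, 4.46 and 4.44 in HFD, and 4.53, 4.97 and 4.54 in GFB. Only 4 of these 9 values lay above 4.74, the median of all gene means, under which signal is not told from background here. The RD arrays were above all others, and GFB replicate 2 stood closest to them. The HFD difference was -0.67 ± 0.14 on the log2 scale (adjusted p = 0.0501) and so narrowly did not pass. It passed without RD replicate 1 (-0.76, adjusted p = 0.0440) and without GFB replicate 2 (-0.67, adjusted p = 0.0341). The HFD mean of 4.51 was under 4.74, so the size of the difference is limited by the dim signal.

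Acyl-CoA dehydrogenases, which start each round of the spiral, were all lower in HFD, with no overlap between the groups, but none passed. Acadl, the long-chain enzyme, had log2 levels of 10.60, 10.85 and 10.95 in RD, 10.21, 10.46 and 10.33 in HFD, and 10.41, 10.30 and 10.46 in GFB. RD replicate 1 was the lowest RD array and stood nearest to the high-fat arrays. The HFD difference was -0.47 ± 0.11 (adjusted p = 0.0732). It passed without RD replicate 1 (-0.57, adjusted p = 0.0287).

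Acadvl, the very-long-chain enzyme of the inner membrane, stood at 9.95, 10.22 and 10.10 in RD, at 9.72, 9.82 and 9.70 in HFD, and at 9.77, 9.85 and 9.85 in GFB. Again the lowest RD array was replicate 1, and it was still above every high-fat array. The HFD difference was -0.35 ± 0.08 (adjusted p = 0.0886), and it passed without RD replicate 1 (-0.41, adjusted p = 0.0435). Acadm, the medium-chain enzyme, stood at 11.77, 11.90 and 11.97 in RD, 11.52, 11.65 and 11.52 in HFD, and 11.71, 11.52 and 11.60 in GFB. GFB replicate 1 came closest to the RD arrays. The HFD difference was -0.31 ± 0.08 (adjusted p = 0.125).

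None of the 3 carnitine shuttle genes passed. Cpt1a, the gate for long-chain fatty acids that malonyl-CoA inhibits, had log2 levels of 10.94, 11.25 and 11.44 in RD, 10.81, 10.89 and 10.84 in HFD, and 10.56, 10.66 and 10.93 in GFB. The RD arrays spread widely (SD 0.25), and the lowest of them was just above the highest GFB array. The HFD difference was -0.36 ± 0.13 (adjusted p = 0.274). Cpt2 ranged from 10.01 to 10.15 in RD and from 9.92 to 9.95 in HFD, a difference of -0.13 ± 0.07 (adjusted p = 0.445) in groups that did not overlap. Slc25a20, the carrier between both transferases, ranged from 9.62 to 9.76 in RD and from 9.69 to 9.81 in HFD. These ranges overlapped, and the difference was 0.09 ± 0.07 (adjusted p = 0.666).

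Hadh and Acaa2, which act on shorter chains, had small differences of opposite sign. Hadh stood at 11.47, 11.70 and 11.49 in RD, 11.62, 11.87 and 11.74 in HFD, and 11.66, 11.65 and 11.69 in GFB. Its RD replicate 2 lay among the HFD arrays, and the HFD difference of 0.19 ± 0.09 did not pass (adjusted p = 0.416). Acaa2 ranged from 11.47 to 11.60 in RD, from 11.32 to 11.45 in HFD and from 11.37 to 11.45 in GFB. RD did not overlap either high-fat group, by a narrow margin, and the HFD difference was -0.16 ± 0.07 (adjusted p = 0.382).

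**Figure D2:**
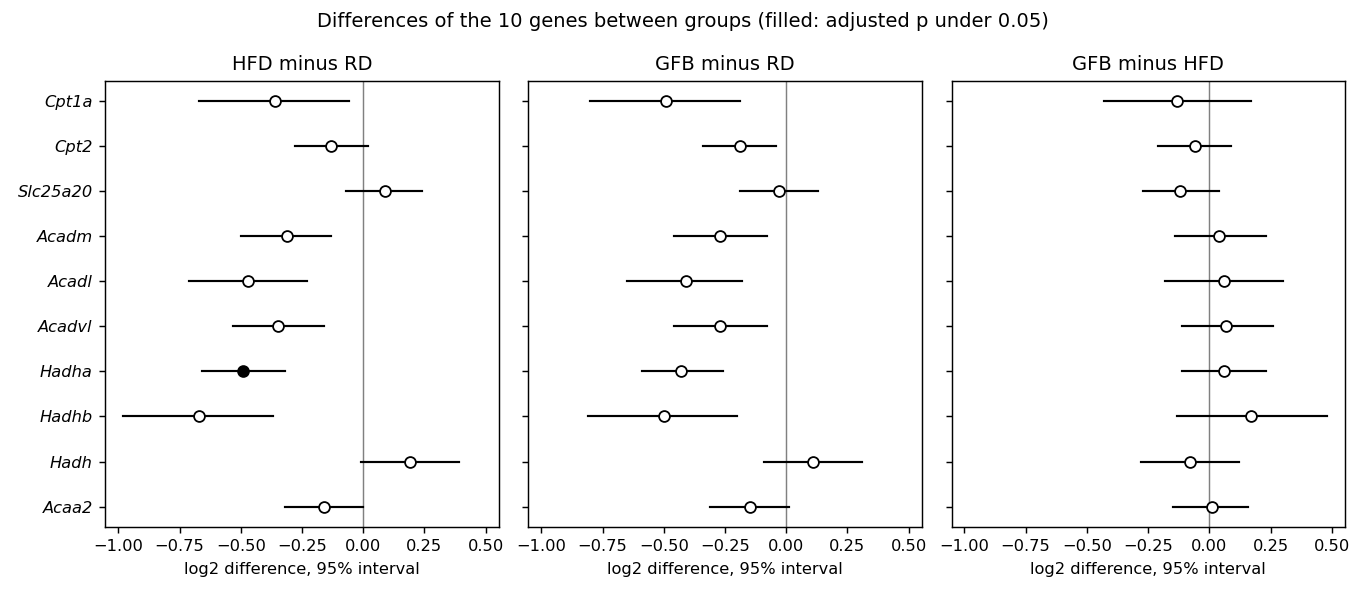
Log2 differences of the 10 members (points) with 95% intervals (lines) for HFD minus RD, GFB minus RD and GFB minus HFD, filled where the adjusted p was under 0.05. Only Hadha in HFD minus RD is filled, and every interval of GFB minus HFD includes 0.

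GFB was next set against HFD, which asks what the extract did on top of the high-fat diet. The members' mean levels in GFB ran from 8.62% lower (Cpt1a) to 5.33% higher (Acadvl) than in HFD, leaving out Hadhb, whose means in both groups were under 4.74, and none passed the test. Of the 10, 0 fell and 0 rose (limma, adjusted p from 0.863 to 0.994), where 0% of all genes fell and 0.00451% rose. At an unadjusted p under 0.05, 0 members were lower, against 3.4% of all genes, and 0 were higher, a share not counted over all genes. In direction 4 were lower and 6 higher, with a median log2 difference of 0.02. The GFB arrays lay wholly above the HFD arrays for 1 member, Hadha, against 4.42% of all genes, and wholly below them for 1, Cpt2, against 5.27%.

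The intervals show how large an extract effect these arrays leave room for. For Hadha the log2 difference of GFB from HFD was 0.06, with a 95% interval from -0.11 to 0.23. The interval ran from -0.11 to 0.26 for Acadvl, from -0.14 to 0.23 for Acadm and from -0.18 to 0.30 for Acadl, the 3 acyl-CoA dehydrogenases. Cpt1a was the member with the lowest difference (-0.13, interval from -0.43 to 0.17), since GFB replicates 1 and 2 lay below all HFD arrays and GFB replicate 3 above them. For Hadhb the difference was 0.17 (interval from -0.13 to 0.48), but its means of 4.51 in HFD and 4.68 in GFB were both under 4.74, so this size cannot be read. For Cpt2 (-0.06), Slc25a20 (-0.12), Hadh (-0.08) and Acaa2 (0.01) the intervals together spanned -0.28 to 0.16. The HFD arrays are shared with the comparison of HFD and RD, so these differences are not independent of those.

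Extract-treated mice were also set against the regular diet. Here 9 members were lower, Hadh was higher, and none passed, with Hadha closest at 1.34-fold lower (-0.43 ± 0.07, adjusted p = 0.0547, limma). Of the 10, 0 fell and 0 rose, where 0.18% of all genes fell and 0.261% rose. At an unadjusted p under 0.05, 7 members were lower, against 6.26% of all genes. The GFB arrays lay wholly below the RD arrays for 8 members, against 7.62% of all genes, and the median log2 difference was -0.27. Next to Hadha came Acadl (-0.41 ± 0.11, adjusted p = 0.163), Hadhb (-0.50 ± 0.14, adjusted p = 0.186) and Cpt1a (-0.49 ± 0.13, adjusted p = 0.187). Acadvl and Acadm both had a difference of -0.27 ± 0.08 (adjusted p = 0.235 and 0.238). Cpt2 (-0.19), Acaa2 (-0.15), Slc25a20 (-0.03) and Hadh (0.11) had the smallest differences, and the GFB and RD ranges of Slc25a20 and Hadh overlapped. Hadha passed without RD replicate 1 (-0.49, adjusted p = 0.0250).

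All 6 high-fat arrays, with and without extract, were then set against the 3 RD arrays, which asks what the diet did in either case. Hadha of the trifunctional protein fell 1.37-fold (-0.46 ± 0.06, adjusted p = 0.0131, limma). Its partner Hadhb also passed (-0.59 ± 0.12, adjusted p = 0.0442, limma), at a dim probe set as given above. The high-fat mean of Hadhb, 4.6, was under 4.74, so the size of this difference cannot be read. The call of Hadhb was lost in 8 of the 17 alternative settings listed below. Acadl just missed the threshold (-0.44 ± 0.09, adjusted p = 0.0506), and Acadvl (-0.31 ± 0.07, adjusted p = 0.0716), Acadm (-0.29 ± 0.07, adjusted p = 0.0874) and Cpt1a (-0.43 ± 0.12, adjusted p = 0.119) did not pass. Cpt2 (-0.16 ± 0.06, adjusted p = 0.236) and Acaa2 (-0.15 ± 0.06, adjusted p = 0.286) had smaller differences. Hadh (0.15 ± 0.08, adjusted p = 0.439) and Slc25a20 (0.03 ± 0.06, adjusted p = 0.888) were not lower.

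In that pooled comparison 2 of 10 members fell and 0 rose, where 0.744% of all genes fell and 0.933% rose. At an unadjusted p under 0.05, 8 members were lower, against 7.29% of all genes. For the same 8, every high-fat array lay below every RD array, against 4.11% of all genes. The median log2 difference was -0.30. The RD arrays are the same 3 in each comparison with RD, so these comparisons are not independent of each other. In bulk liver, fewer cells that express a gene and less RNA per cell cannot be told apart.

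Leaving out an RD array changed the calls in both directions. RD replicate 1 was the lowest RD array for 9 of the 10 members, all but Cpt2, for which it was replicate 2. Relative to the RD mean of each gene, the mean of the 10 members was -0.13 in RD replicate 1 and 0.06 in each of RD replicates 2 and 3. In the 6 high-fat arrays it ran from -0.30 to -0.22. Without RD replicate 1, 5 members fell in the pooled comparison: Hadha, Hadhb (-0.67, adjusted p = 0.0410), Acadl (-0.54, adjusted p = 0.0199), Acadvl (-0.38, adjusted p = 0.0371) and Cpt1a (-0.56, adjusted p = 0.0381). Without RD replicate 2 (Hadha -0.41, adjusted p = 0.0663) or RD replicate 3 (Hadha -0.44, adjusted p = 0.0591), 0 did. The calls moved in the same way over all genes: 165 genes fell with all arrays, 274 without RD replicate 1, 23 without RD replicate 2 and 25 without RD replicate 3.

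Hadha still passed in the pooled comparison without any 1 of the 6. Hadhb passed without GFB replicate 2 and did not pass without HFD replicates 1, 2 or 3 or GFB replicates 1 or 3, where its adjusted p ran from 0.0681 to 0.0994. With the replicate number as a block, Hadha passed (adjusted p = 0.0324) and Hadhb did not (adjusted p = 0.0545).

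**Figure D3:**
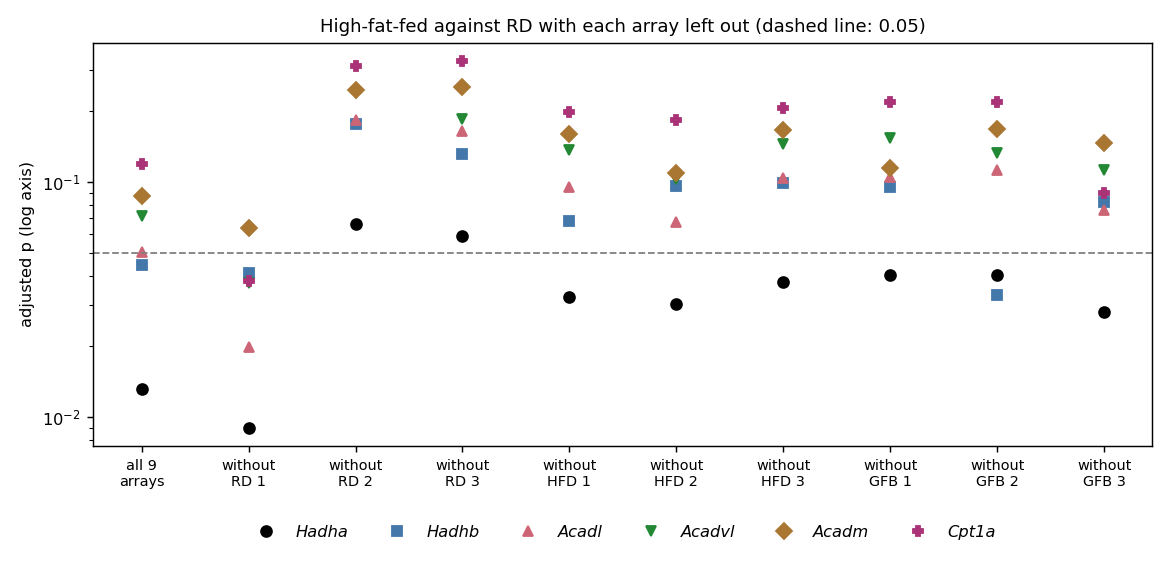
Adjusted p (vertical log axis, limma) of 6 members in the pooled high-fat comparison with RD, with all 9 arrays and with each array left out in turn; the dashed line is 0.05. The points of Hadha lie under the line except without RD replicate 2 (0.0663) and RD replicate 3 (0.0591).

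The levels of a gene could be ordered by group. For Acadm, Acadl, Acadvl, Hadha, Hadhb and Acaa2 the order was RD, GFB, HFD from high to low, for Cpt1a and Cpt2 it was RD, HFD, GFB, for Slc25a20 HFD, RD, GFB, and for Hadh HFD, GFB, RD. In each of the first 8 genes the arrays of RD and the next group did not overlap, but none of these 8 steps passed the test (Hadha was closest, adjusted p = 0.0547). GFB and HFD overlapped for 6 of the 8, all but Cpt2 and Hadha, and none of these steps passed either. For Slc25a20 and Hadh no neighbours in the order passed the test.

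Members were compared in their pattern by the root mean square difference of their centred log2 values over the 9 arrays, given without a test. Hadha and Acadl were nearest to each other, at 0.0726, and Acadvl was nearest to Hadha (0.0789). Cpt2 and Acaa2 were the closest pair (0.0561), both with small differences between diets. Hadhb was nearest to its partner Hadha, but at 0.167, which is the largest distance of any member to its nearest. Hadh and Hadhb were farthest apart, at 0.398. Outside the members, the 5 genes most like the mean of the 10 were Zfp386 (0.0438), Sbds (0.0441), Acad11 (0.0457), Tbc1d15 (0.0477) and Ostf1 (0.0478). Of these Acad11 encodes another acyl-CoA dehydrogenase, and none passed in the pooled comparison (adjusted p from 0.0716 to 0.209).

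The rest of the pathway was read from lists of related genes. Of 10 measured genes of fatty acid activation and entry control, 2 fell and 0 rose in the pooled comparison, with a median log2 difference of -0.24. Acacb encodes the acetyl-CoA carboxylase that makes the malonyl-CoA which inhibits Cpt1a. Its levels were 7.03, 7.03 and 6.80 in RD, 6.52, 6.46 and 6.52 in HFD, and 6.05, 6.24 and 5.90 in GFB. The 3 groups did not overlap, and Acacb fell by 0.67 ± 0.09 on the log2 scale in the pooled comparison (adjusted p = 0.0113) and by 0.88 ± 0.10 in GFB against RD (adjusted p = 0.0140). Neither HFD against RD (-0.45, adjusted p = 0.0744) nor GFB against HFD (-0.44, adjusted p = 0.537) passed for it. Both calls of Acacb were lost without RD replicate 2 (adjusted p = 0.0615 and 0.0826), and the second also without GFB replicate 1 (0.0779) or 2 (0.0599). Slc22a5, the plasma membrane carnitine transporter, fell by 0.56 ± 0.12 in the pooled comparison (adjusted p = 0.0481), a call kept only without RD replicate 1 or GFB replicate 3. Without the other arrays in turn its adjusted p ran from 0.0777 to 0.172. Crat, carnitine acetyltransferase, stood at -0.49 ± 0.10 (adjusted p = 0.0539) and passed without HFD replicate 2 (-0.56, adjusted p = 0.0291). Acsl1, Acsl3 and Cpt1b were not tested here.

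Acyl-CoA dehydrogenases pass their electrons to the electron transfer flavoprotein and its oxidoreductase. All 5 measured genes of this relay were lower in the pooled comparison, with a median of -0.34, and 1 fell: Etfb, the flavoprotein's beta chain (-0.37 ± 0.08, adjusted p = 0.0476). Etfb stood at 9.90, 10.12 and 9.87 in RD, 9.55, 9.49 and 9.68 in HFD, and 9.56, 9.60 and 9.63 in GFB, without overlap between RD and the rest. Its call was lost without any 1 of the 9 arrays (adjusted p from 0.0562 to 0.159, log2 differences from -0.42 to -0.30). Etfdh, the oxidoreductase (-0.22 ± 0.05, adjusted p = 0.0939), and Etfrf1, a regulator of the flavoprotein (-0.34 ± 0.09, adjusted p = 0.101), did not pass.

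The other dehydrogenases and the short-chain steps had medians near 0. Of 9 other acyl-CoA dehydrogenases, 3 were lower and 0 passed (1 was lower at an unadjusted p under 0.05), with a median of 0.01. The lowest p belonged to Acad11 (-0.23 ± 0.07, adjusted p = 0.143), followed by Gcdh (0.14) and Acadsb (0.10) of lysine and branched-chain amino acid breakdown. Of 6 genes for short-chain and unsaturated fatty acids, 3 were lower and 0 passed (1 at an unadjusted p under 0.05), with a median of 0.04. Decr1, the dienoyl-CoA reductase for unsaturated chains, stood at -0.31 ± 0.08 (adjusted p = 0.110, and 0.0416 without RD replicate 1), Hsd17b10 at 0.18 and Eci1 at -0.18.

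Regulators of the pathway did not pass either. Of 9 measured, 6 were lower in the pooled comparison, 0 passed and 2 were lower at an unadjusted p under 0.05. Ppargc1a stood at 6.71, 8.11 and 7.24 in RD, 6.05, 6.67 and 6.22 in HFD, and 6.48, 6.52 and 6.10 in GFB. Its RD arrays spread widely (SD 0.71) above all high-fat arrays, and the pooled difference was -1.01 ± 0.27 (adjusted p = 0.113). It was -1.33 without RD replicate 1, where it passed (adjusted p = 0.0343), and -0.63 without RD replicate 2 (adjusted p = 0.264). Ppargc1b (-0.19) and Creb3l3 (-0.14) followed, and Ppara, the receptor gene itself, was at 0.07 ± 0.11.

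Of 11 measured genes that respond to fasting or PPAR-alpha, 10 were lower and 3 fell in the pooled comparison, with a median log2 difference of -0.71. Those that fell were Ehhadh, the peroxisomal bifunctional enzyme (-1.79 ± 0.17, adjusted p = 0.00345), Acot1, an acyl-CoA thioesterase with near-identical relatives (-1.54 ± 0.13, adjusted p = 0.00231), and Plin5, a lipid droplet protein at mitochondria (1.99-fold lower, adjusted p = 0.00701). These 3 calls were kept without any 1 array. Cyp4a14, an omega-hydroxylase with similar relatives, fell in HFD against RD (-0.98 ± 0.19, adjusted p = 0.0411) but not in the pooled comparison (-0.71, adjusted p = 0.0682, and 0.0303 without HFD replicate 2). Its call in HFD was kept only without RD replicate 1 or HFD replicate 2, and otherwise its adjusted p ran from 0.0701 to 0.137. None of the 11 passed in GFB against HFD. At an unadjusted p under 0.05, 2 were lower there, against 3.4% of all genes, and 2 were higher. The share of all genes that was higher was not counted. Relative to the RD means, this list averaged -0.09 in RD replicate 1 and 0.01 and 0.08 in RD replicates 2 and 3, so the same RD array was lowest, and between -0.87 and -0.50 in the high-fat arrays.

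**Figure D4:**
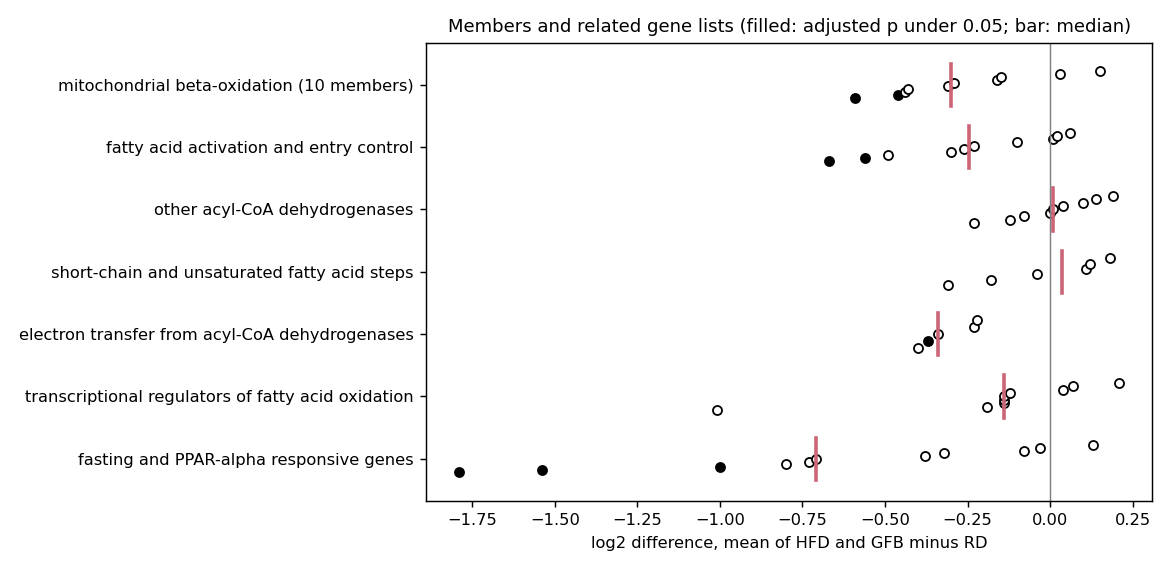
Log2 difference of the pooled high-fat groups from RD (horizontal axis) for each gene of the members and 6 related lists, filled where the adjusted p was under 0.05, with the list median as a bar. The medians run from -0.71 for fasting and PPAR-alpha responsive genes to 0.04 for the short-chain and unsaturated steps, and the members' median is -0.30.

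Markers of liver cells were checked beside these results. None of the 9 measured hepatocyte markers was under 4.74 in every array. Together they averaged 11.24 to 11.34 in RD, 11.05 to 11.18 in HFD and 11.18 to 11.28 in GFB. In HFD against RD 4 of the 9 were lower, Ass1 (-0.75), Cps1, Tat (-0.47) and Hnf4a (-0.19), and 5 were not, Alb, Apob, Apoa1, Ttr and Serpina1a (0.01 to 0.14), with a median of 0.01. Of the 9 only Cps1 of the urea cycle passed, and it fell in HFD (-0.66 ± 0.10, adjusted p = 0.0224) and in the pooled comparison (-0.49 ± 0.09, adjusted p = 0.0358), and 4 of 9 were lower in the latter. The pooled call of Cps1 was kept only without RD replicate 1 (otherwise adjusted p from 0.0642 to 0.123), and the HFD call was lost without 5 of the 6 RD and HFD arrays, all but RD replicate 1 (0.0527 to 0.0852). Stellate markers averaged 6.57 to 6.75 in RD, 6.87 to 6.96 in HFD and 6.73 to 6.80 in GFB. In HFD against RD 3 of the 8 were lower (down to -0.38) and 5 higher, with a median of 0.10. GFB against HFD also had 3 lower and 5 higher, with a median of 0.09. Of the 8, only 2 collagen genes passed, and they rose in HFD, Col3a1 by 1.14 ± 0.14 (adjusted p = 0.0115) and Col1a1 by 0.85 ± 0.12 (adjusted p = 0.0152). Without RD replicate 2 neither passed (0.0538 for Col3a1 and 0.0686 for Col1a1), and Col1a1 did not without RD replicate 3 (0.0511), HFD replicate 2 (0.0620) or HFD replicate 3 (0.0619). In GFB against HFD neither passed (Col3a1 -1.15, adjusted p = 0.0975, and Col1a1 -1.05, adjusted p = 0.0851). Both passed there without HFD replicate 1 (0.0125 and 0.0112) and neither did without any other array (0.147 to 0.449). Macrophage markers averaged 6.37 to 7.03 in RD and 6.43 to 6.96 in the high-fat groups. Endothelial markers averaged 7.45 to 7.63 in RD, 7.21 to 7.51 in HFD and 7.44 to 7.73 in GFB. Of these 7, 5 were lower and 2 higher in HFD against RD (median -0.25). In GFB against HFD 2 were lower and 5 higher (median 0.28). None of the macrophage or endothelial markers passed. All 5 neutrophil markers, 4 of 5 lymphocyte markers, Krt19 and Epcam of bile ducts, Adipoq and Lep of fat and Mylpf of muscle were under 4.74 in every array. The part of these shifts in the members' differences was not tested.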

How the data were processed

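Liver RNA of 9 samples (3 RD, 3 HFD, 3 GFB, grouped by their titles) was measured on a whole-transcript GeneChip. The deposited values are log2 expression per probe set, made by the authors with RMA (oligo, in R) as listed per the submitters' processing notes. RMA forces all arrays to 1 distribution, so a shift shared by most genes is removed. Versions and the genome build of the probe sets are not given in the sources used here. Array medians ran from 4.34 to 4.38, and precision is limited by having 3 arrays a group.

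Of 41345 probe sets, 23521 had 1 gene symbol, 1814 several and 16010 none. Only the first were used, with the brightest probe set standing for each of 22180 genes. Of the 23521 probe sets, 23328 had the symbol that RefSeq gives for their gene identifier, and 193 had no match. limma 3.58.1 in R 4.3.3 was fitted to all 9 arrays with 1 mean per group (6 residual and 3.28 prior degrees of freedom), two-sided, with Benjamini-Hochberg adjustment over all genes and calls under 0.05. The fit was tested on simulated data with changes in both high-fat groups against RD, so recovery of a change between GFB and HFD was not simulated. The members and lists were chosen with earlier results of these data known. Named were all members, list genes that passed, otherwise up to 3 per list with the smallest pooled p, markers that passed, and the 5 genes nearest to the members' mean pattern. Ppara was named in addition, after its value was seen.

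Alternatives were a variance trend with robust fitting, brighter genes only, the mean of probe sets, quantile normalization again, a shift to equal medians, weighted arrays, a replicate-number block, a threshold of 0.10, only the arrays compared, and each array left out.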

Additional observations from a re-analysis of the deposited data

How the results depend on the processing

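The count of members that fell in HFD against RD (1) was 3 with a variance trend and robust fitting, 4 among genes above the median brightness, 2 with quantile normalization again, 2 with array weights, 4 at an adjusted p under 0.10, 0 when only the arrays compared were fitted, and 0 to 4 with each array left out. Of all 22180 genes, 115 fell in that comparison, 177 with the variance trend, 140 with quantile normalization again and 124 with array weights. The all-gene count was 258 of the 11090 brighter genes, 261 at an adjusted p under 0.10 and 2 with only the arrays compared. With each array left out, 17 to 207 genes fell. In GFB against RD (0) the count of members was 1, Hadha, with the variance trend, among the brighter genes, with array weights and at an adjusted p under 0.10, and 0 to 1 with each array left out. Of all genes, 40 fell there, 61 with the variance trend, 105 of the 11090 brighter genes, 45 with array weights and 91 at an adjusted p under 0.10. With each array left out, 0 to 141 genes fell. In the pooled comparison (2) the count of members was 4 with the variance trend, 5 among the brighter genes, 5 at an adjusted p under 0.10, 1 with the replicate block, and 0 to 5 with each array left out. Over the 17 alternatives there, Hadha passed in 15, Hadhb in 9, Acadl in 7, Acadvl in 4, Acadm in 2 and Cpt1a in 1. Of all genes, 165 fell, 248 with the variance trend, 320 of the 11090 brighter genes, 345 at an adjusted p under 0.10 and 90 with the block. With each array left out, 23 to 274 genes fell. No alternative gave a call of a member in GFB against HFD. Over all genes the calls there in either direction numbered 1 in the main fit and 4 at an adjusted p under 0.10. They were 4 of the 11090 brighter genes, 3 with array weights and 0 with only the arrays compared. The members' median log2 difference with each array left out ran from -0.39 to -0.26 in HFD against RD, from -0.33 to -0.24 in GFB against RD, from -0.36 to -0.26 in the pooled comparison and from -0.02 to 0.04 in GFB against HFD, and no member that passed changed sign in any alternative. The replicate block, which is not a stated pairing, moved 1 member call, Hadhb in the pooled comparison (adjusted p = 0.0545). Deviations of same-numbered arrays correlated at -0.0511 to 0.173 across genes, and those of differently numbered arrays at -0.129 to 0.131. With 3 arrays a group these values cannot tell whether the numbers pair the arrays, and the labels state no pairing. The calls of all genes in either direction under the block numbered 201 in HFD against RD (297 without it), 68 in GFB against RD (98) and 231 in the pooled comparison (372). Over all genes the calls in either direction also numbered 597 among the brighter genes, 611 at an adjusted p under 0.10 and 15 with only the arrays compared in HFD against RD. They were 232, 216 and 34 in GFB against RD, and 707 and 760 by the first 2 of these in the pooled comparison. The dim signal of Hadhb limits how its size can be read.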
